A study of Mus musculus with 6 samples.

Results

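The transcripts described here are those of 42 genes of blood vessel endothelium and of the vascular basement membrane, measured in whole mouse pancreases at e15.5. They were chosen by name, as genes whose probe sets carry that 1 gene symbol, and all 42 were found among the 18194 genes on the arrays. The probe set with the highest mean signal stood for each gene. A total of 3 Jarid2WT pancreases (wild type) and 3 Jarid2Δpanc pancreases (Pdx1-Cre;Jarid2 flox/flox, the pancreas-specific Jarid2 knockout), all from C57BL/6 embryos at e15.5, were compared. Jarid2 is a cofactor of Polycomb Repressive Complex 2, the enzyme complex that methylates histone H3. Pdx1-Cre recombines floxed alleles in the pancreatic epithelium, and in these embryos in a mosaic way, so that the vessels of the knockout were not a target of the deletion. The arrays were read from whole organs, in which fewer endothelial cells and less RNA per endothelial cell cannot be told apart.

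Endothelial cells line blood and lymphatic vessels and are held together by cadherin and claudin junctions. They respond to vascular endothelial growth factors and to angiopoietins through receptor tyrosine kinases, and their identity depends on transcription factors of the ETS and SOX families. In the developing pancreas they lie close to the epithelium. The vascular basement membrane that they lay down holds collagen IV, laminins, nidogens and perlecan. Several of the genes, such as those of collagen IV, are also used by mesenchymal cells.

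Signals are linear array intensities, scaled on each array to a common trimmed mean of 150, and the array medians were 35 to 38. All 42 genes were over the floor of 16 on all arrays, and the lowest reading of any of them was 27. Jarid2 itself had signals of 335, 301 and 415 in Jarid2WT and 392, 398 and 355 in Jarid2Δpanc replicates 1 to 3, with a log2 fold change of 0.13 (standard error, SE, 0.14, and limma adjusted p = 0.817). Its probes do not report on the deletion unless they lie in the deleted exon, which was not checked. Skeletal muscle transcripts were high on 1 array, with a summed signal of 10 muscle genes of 11248 in Jarid2WT replicate 3 and 255 to 346 on the other 5. Xist was high in Jarid2WT replicate 3 and all Jarid2Δpanc samples (4197 to 4905) and at 24 and 12 in Jarid2WT replicates 1 and 2. The Y-linked gene Eif2s3y had 560, 506 and 9 in Jarid2WT and 7, 5 and 13 in Jarid2Δpanc replicates 1 to 3. By these signals only Jarid2WT replicates 1 and 2 were male, so that sex was largely confounded with genotype. The part of sex in the differences of the 42 genes was not tested.

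The defining markers of endothelium were present in both groups. Signals are given here and below for replicates 1, 2 and 3 of each group. Kdr, the main receptor for vascular endothelial growth factor, had 224, 252 and 252 in Jarid2WT and 261, 285 and 197 in Jarid2Δpanc. The lowest and the highest of these readings were both from knockout samples. Pecam1, Cdh5, Tie1, Tek, Emcn, Esam and Cldn5, the other defining markers, ranged from 27 to 325 over the 6 arrays. In these 8 markers the groups overlapped, a count too small to set against the 5.64% below and 5.71% above over all genes.

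None of the 42 genes passed the test between Jarid2Δpanc and Jarid2WT pancreases. With limma over all genes and Benjamini-Hochberg adjustment, 0 fell and 0 rose at the threshold of 0.05, and the lowest adjusted p among them was 0.580. The background was the same, since 0 of 18194 genes (0%) were called in either direction. At an unadjusted p under 0.05, 0 of the 42 were lower and 0 higher, against 4.44% of all genes lower and 4.37% higher. The 95% interval of the log2 fold change held 0 for all 42.

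Small positive differences were nevertheless common. Of the 42 genes, 35 had a positive and 7 a negative log2 fold change, with a median of 0.14, which is 1.11-fold. Over all genes with a difference other than 0, 52.3% were positive, and the median over the 12490 genes above the floor on all arrays was 0.01. In 3 of the 42 (7.14%) every Jarid2Δpanc sample lay above every Jarid2WT sample, against 5.71% of all genes, and in 0 every one lay below, against 5.64% of all genes. The count above all controls was thus near the background with all 6 samples, and it varied with the sample left out. Fewer samples make such a separation easier, and with any 1 left out the share of all genes was 9.56% to 10.8%. The count was 5, 9 and 11 of the 42 without Jarid2WT replicate 1, 2 or 3, against 9.87%, 9.56% and 10.8% of all genes. Without Jarid2Δpanc replicate 1 it was 3 of the 42, against 9.95% of all genes. Without Jarid2Δpanc replicate 3 it was 8 of the 42, against 10.6% of all genes.

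The size of the median difference depended on which controls were used. Against Jarid2WT replicate 3 alone, the only control with Xist and the one with muscle transcripts, the median of the 42 was 0.03, and 25 genes were positive and 17 negative. Without that sample the median was 0.19. Relative to the mean of the controls, the mean log2 signal of the 42 genes was -0.06, -0.02 and 0.07 in Jarid2WT and 0.19, 0.18 and 0.07 in Jarid2Δpanc replicates 1 to 3. Jarid2WT replicate 3 and Jarid2Δpanc replicate 3 had nearly the same value, so that the groups overlapped.

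**Figure D1:**
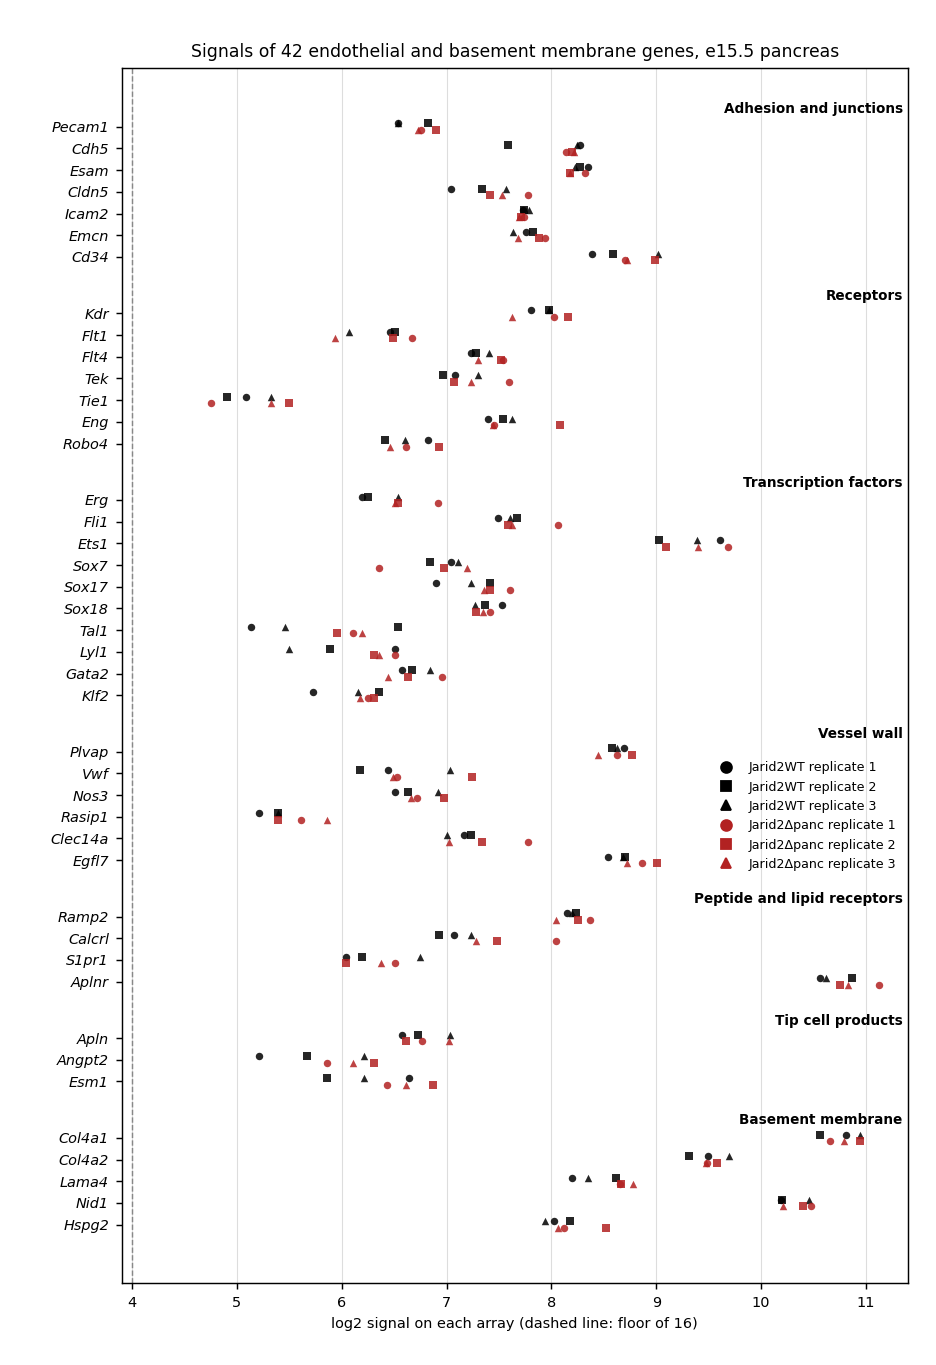
log2 signal (horizontal axis) of each of the 42 genes (vertical axis, grouped by role) on the 3 Jarid2WT arrays (black) and the 3 Jarid2Δpanc arrays (red), with one symbol shape per replicate number. The groups overlap in all but 3 genes, Egfl7, Calcrl and Lama4, and every point lies to the right of the dashed line at the floor of 16.

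How firmly a difference can be bounded varied between the genes. The standard errors on the log2 scale ranged from 0.02 to 0.40, with a median of 0.16. For 36 of the 42 the 95% interval lay within a log2 fold change of 1 in either direction, and for 16 within 0.5. The lowest bound of any gene was -0.80, for Sox7, and the highest was 1.44, for Tal1. A doubling or a halving was therefore outside the interval of the chosen probe set for these 36 genes. For some, such as Icam2 and Esam, much smaller differences were outside it as well. The intervals do not cover disagreement between probe sets. A second probe set of Nid1 had 0.72, outside the interval of -0.21 to 0.37. A second one of Hspg2 had -0.42, outside that of -0.20 to 0.58.

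**Figure D2:**
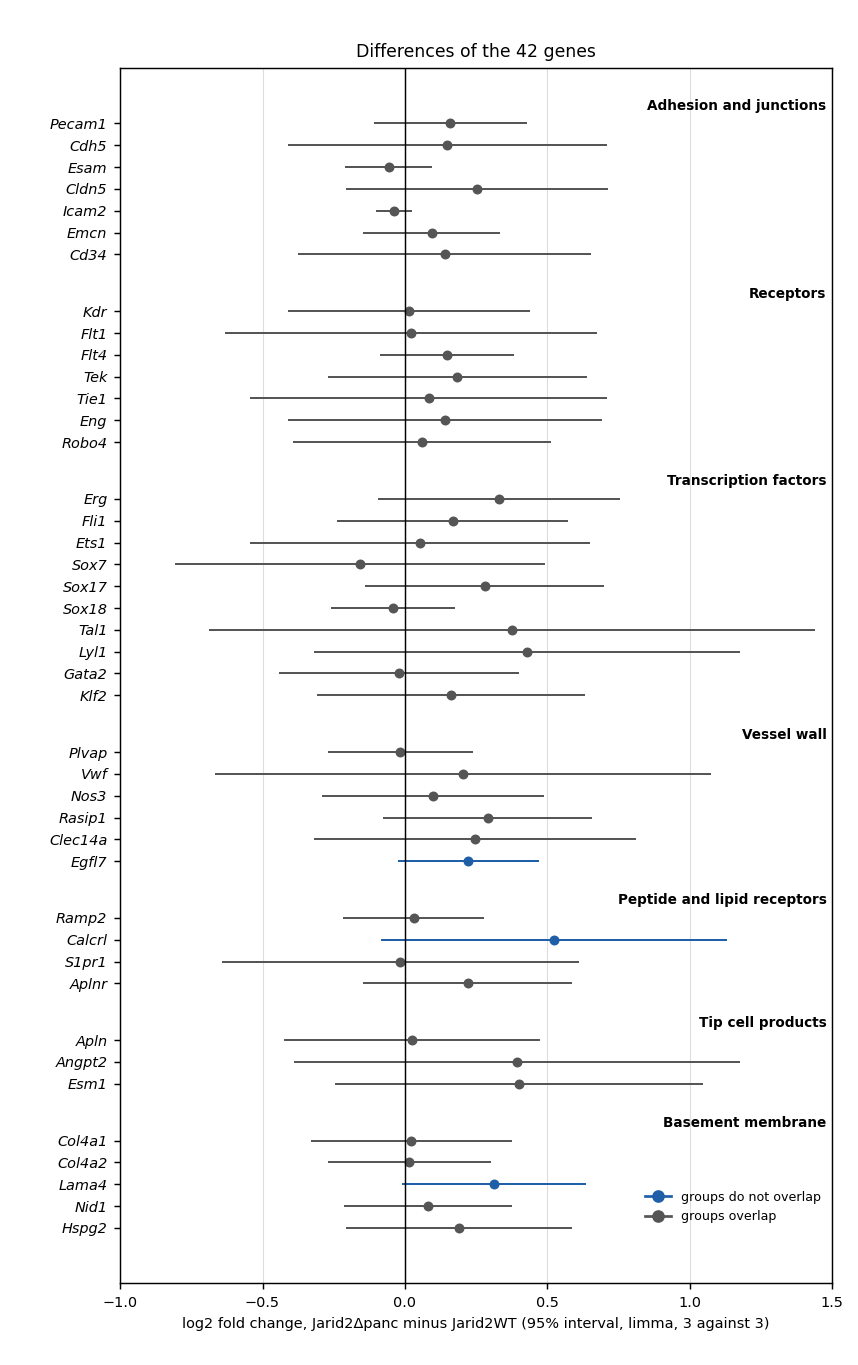
log2 fold change of each of the 42 genes, Jarid2Δpanc minus Jarid2WT, with the 95% interval from limma (3 samples against 3), grouped by role. Blue marks the 3 genes whose groups do not overlap. All 42 intervals hold 0, and 35 points lie to the right of 0.

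Among genes of adhesion and junctions, 5 of 7 had a positive difference and 0 passed the test. Cd34, a sialomucin of endothelial and blood progenitor cells, had signals of 335, 384 and 518 in Jarid2WT and 416, 507 and 422 in Jarid2Δpanc. Its spread within each group was wider than the difference of 0.14 (SE 0.19). Esam, an adhesion molecule of endothelial tight junctions, had 325, 309 and 300 in Jarid2WT and 320, 289 and 289 in Jarid2Δpanc. Its log2 fold change was -0.06 (95% interval -0.21 to 0.09). The smallest standard error of all members was that of Icam2, a leukocyte adhesion ligand, with signals of 212, 214 and 220 in Jarid2WT and 213, 209 and 207 in Jarid2Δpanc, named after its values were seen. Pecam1, Cdh5, Cldn5 and Emcn had log2 fold changes of 0.09 to 0.25.

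Receptors for vascular growth factors had small differences in their chosen probe sets. All 7 of the group had positive log2 fold changes, from 0.01 for Kdr to 0.18 for Tek, the angiopoietin receptor, and 0 passed the test. For Kdr the 95% interval was -0.41 to 0.43. Endoglin (Eng), a co-receptor for ligands of the transforming growth factor β family, had signals of 168, 186 and 197 in Jarid2WT and 175, 271 and 174 in Jarid2Δpanc. Only the reading of Jarid2Δpanc replicate 2 lay outside the range of the controls. A second probe set of Eng went the other way, with a difference of -0.24 on the log2 scale. Flt1 and Flt4, further receptors of the family, the orphan receptor Tie1 and the guidance receptor Robo4 lay between 0.01 and 0.18 in their chosen probe sets. Other probe sets of Flt1 had 0.31, 0.25 and 0.06, and a dim one of Flt4 had -0.26. The groups overlapped in all of these.

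Transcription factors of endothelial and blood progenitor identity had the widest range. Of 10 genes, 7 were positive and 3 negative, with log2 fold changes from -0.16 for Sox7 to 0.43 for Lyl1. Ets1, an ETS family factor used in many cell types, had 782, 522 and 668 in Jarid2WT and 825, 547 and 676 in Jarid2Δpanc. Both groups covered the same range (log2 fold change 0.05, SE 0.22). Fli1, a related factor required in early vessels and blood, had 180, 204 and 195 in Jarid2WT and 268, 192 and 197 in Jarid2Δpanc (0.17, SE 0.15). Jarid2Δpanc replicate 1 stood above the other 5 arrays. A second and dimmer probe set of Fli1, with 34 to 43 in Jarid2WT and 45 to 65 in Jarid2Δpanc, did not overlap between the groups. Tal1 and Lyl1, which are also factors of blood cells, had the highest standard errors of this group, 0.40 and 0.28. The summed signal of 7 erythroid genes likewise varied within the groups, from 558 to 726 in Jarid2WT and from 489 to 734 in Jarid2Δpanc, and its part in the signals of Tal1 and Lyl1 was not tested. Erg, Sox17, Sox18, Gata2 and Klf2 had groups that overlapped.

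Egfl7, a secreted protein of endothelial cells that guides vessel tube formation, was 1 of the 3 genes whose groups did not overlap. Its gene lies at chr2:26581083-26592682 (GRCm38.p6). It had signals of 371, 416 and 411 in Jarid2WT and 465, 515 and 421 in Jarid2Δpanc, a log2 fold change of 0.22 (SE 0.09, limma adjusted p = 0.616). The margin between the highest control and the lowest knockout sample was narrow. The other 3 probe sets of Egfl7 had differences of 0.14, 0.13 and -0.05, and their groups overlapped. Plvap, the protein of the diaphragms of fenestrated capillaries, had 414, 382 and 394 in Jarid2WT and 396, 437 and 348 in Jarid2Δpanc. Its knockout readings lay on both sides of the controls (-0.02, 95% interval -0.27 to 0.23). The von Willebrand factor gene Vwf, the nitric oxide synthase Nos3, Rasip1 and Clec14a had positive differences of 0.10 to 0.29 with groups that overlapped.

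Calcrl, the receptor that with Ramp2 binds adrenomedullin, had the largest log2 fold change of the 42 genes. Its gene lies at chr2:84330626-84425405 (GRCm38.p6). Signals were 134, 122 and 150 in Jarid2WT and 264, 178 and 155 in Jarid2Δpanc (0.52, SE 0.23, limma adjusted p = 0.643). Jarid2Δpanc replicate 1 had the highest reading, and without that sample the value fell to 0.30. Of the other 2 probe sets of Calcrl, 1 was near the floor and the other under it on all arrays. Ramp2 itself, the partner subunit, had 283, 301 and 294 in Jarid2WT and 330, 306 and 264 in Jarid2Δpanc, a log2 fold change of 0.03 (95% interval -0.21 to 0.27). The apelin receptor Aplnr had 1508, 1869 and 1576 in Jarid2WT and 2235, 1730 and 1818 in Jarid2Δpanc (0.22, SE 0.14), and 0.03 for a probe set without a name suffix. Here too Jarid2Δpanc replicate 1 was the highest array, as it was, ties included, for 16 of the 42 genes. The sphingosine 1-phosphate receptor S1pr1 had a difference of -0.02.

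The products of sprouting tip cells had positive differences within a wide spread. Apelin (Apln), the ligand of Aplnr, had 95, 106 and 131 in Jarid2WT and 109, 98 and 130 in Jarid2Δpanc. It is the one X-linked gene of the 42, and its groups overlapped (0.02, SE 0.17). Esm1, a proteoglycan of tip cells, had 100, 58 and 74 in Jarid2WT and 86, 117 and 98 in Jarid2Δpanc (0.40, SE 0.24). The highest control reading lay within the knockout range. Angpt2, the antagonist ligand of Tek, had 0.39 (SE 0.30).

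Basement membrane genes were represented by collagen IV, laminin α4, nidogen 1 and perlecan. Lama4, which encodes the laminin chain of endothelial and other mesodermal basement membranes, had signals of 293, 393 and 325 in Jarid2WT and 403, 406 and 438 in Jarid2Δpanc. The groups did not overlap, by a margin between 393 and 403, and the log2 fold change was 0.31 (SE 0.12, limma adjusted p = 0.580, the lowest of the 42). Its gene lies at chr10:38965515-39110188 (GRCm38.p6). Without Jarid2WT replicate 1 the value was 0.22 and without Jarid2WT replicate 2 it was 0.43. Nid1, which links laminin to collagen IV, had 1166, 1174 and 1405 in Jarid2WT and 1424, 1349 and 1187 in Jarid2Δpanc (0.08, SE 0.11). Its groups overlapped widely. A second probe set of Nid1 did not behave in this way, with 109, 89 and 90 in Jarid2WT against 166, 163 and 145 in Jarid2Δpanc, a difference of 0.72. With all probe sets of Nid1 averaged the value was 0.45 (limma adjusted p = 0.237). The probe sets of this gene thus disagree, and which of them follows the transcript was not tested. Perlecan (Hspg2), a heparan sulfate proteoglycan, had 0.19 (SE 0.15). A second and dimmer probe set of Hspg2 went the other way. It had 89, 101 and 131 in Jarid2WT and 58, 118 and 72 in Jarid2Δpanc, a difference of -0.42 with groups that overlapped.

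The chains of collagen IV, Col4a1 and Col4a2, had the smallest differences of the group. Both genes start within a short stretch of mouse chromosome 8, on opposite strands, and are known to share a bidirectional promoter. The RefSeq starts used here lie 21 bases apart, at position 11312826 for Col4a1 on the minus strand and 11312805 for Col4a2 on the plus strand (GRCm38.p6), so that each gene begins inside the span of the other. Windows of 300 bases around both starts share 78 bases, and each window is 74% or 73.7% G or C.

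Col4a1 had signals of 1796, 1511 and 1975 in Jarid2WT and 1610, 1975 and 1766 in Jarid2Δpanc. Col4a2 had 720, 636 and 826 in Jarid2WT and 717, 766 and 711 in Jarid2Δpanc. The log2 fold changes were 0.02 for both (95% intervals -0.33 to 0.37 and -0.27 to 0.30). Over the 6 arrays both signals moved together. Pearson's r, taken on log2 signals, was 0.90 (exact permutation p = 0.0167, adjusted p = 0.0333 over 2 pairs). Spearman's rho was 0.93 (exact permutation p = 0.0222, adjusted p = 0.0444). Without the 2 arrays farthest from the median of Col4a1, r was 0.80 over 4 arrays. The other pair of members within 100000 bases of each other, Fli1 and Ets1, had r = 0.39 (exact permutation p = 0.5) and rho = 0.09 (exact permutation p = 0.919). Both pairs were chosen after their values had been seen. Genes that lie far apart were not compared in this way, and the part of the shared start in the correlation was not tested.

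**Figure D3:**
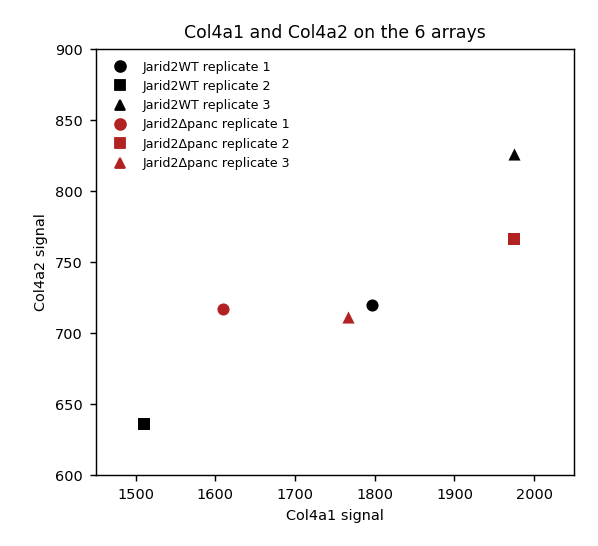
Signal of Col4a2 (vertical axis, linear array intensity, not starting at 0) against that of Col4a1 (horizontal axis, likewise) on the 3 Jarid2WT arrays (black) and the 3 Jarid2Δpanc arrays (red). The array with the lowest Col4a1 signal, Jarid2WT replicate 2, also has the lowest Col4a2 signal, and the genotypes are intermingled.

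A further 72 genes of the same pathways, listed by role, were read in the same way. None passed over all genes, and 47 were positive and 23 negative, with a median of 0.09. At an unadjusted p under 0.05, 9 of the 72 (12.5%) were higher and 1 (1.39%) lower, and in 12 (16.7%) every Jarid2Δpanc sample lay above every Jarid2WT sample. These shares stand beside 4.37%, 4.44% and 5.71% of all genes.

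Nidogen 2 (Nid2), the second nidogen of basement membranes, had the lowest unadjusted p of these genes. Its signals were 324, 339 and 380 in Jarid2WT and 493, 494 and 493 in Jarid2Δpanc, a log2 fold change of 0.51 (SE 0.06, limma adjusted p = 0.221). The 3 knockout readings were nearly equal and well above the controls. Nid2 passed in only 2 of the 17 alternative fits, both of which called far more genes overall. With the dimmest 40% of genes left out and trended, robust variances, its adjusted p from limma was 0.0250, and 54 of 10917 genes were lower and 10 higher. Against Jarid2WT replicate 3 alone its value was 0.38 at a limma adjusted p of 0.0479, and 208 genes were lower and 13 higher; there the lone control is assumed to vary like the other samples.

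In 3 further basement membrane genes every knockout sample lay above every control. With Nid2 these made 4 of the 19 genes of that list, against 5.71% of all genes. Below all controls lay 0 of the 19, against 5.64%. The α5 chain of collagen IV (Col4a5) had 241, 215 and 216 in Jarid2WT and 290, 247 and 299 in Jarid2Δpanc (0.31, SE 0.09), and 0.50 with all of its probe sets averaged. Fibulin 1 (Fbln1), a matrix glycoprotein, had 220, 236 and 297 in Jarid2WT and 349, 342 and 318 in Jarid2Δpanc (0.43, SE 0.13). The value of Fbln1 depended on its probe set and on the controls, with 0.09 for a probe set without a name suffix, 0.20 for the average of all probe sets and 0.18 against Jarid2WT replicate 3 alone. Laminin α1 (Lama1) was dim, with 44, 46 and 42 in Jarid2WT and 52, 55 and 49 in Jarid2Δpanc (0.24, SE 0.06). None of the 3 passed over all genes. Sparc, a collagen-binding matrix protein, and the laminin β1 chain Lamb1 had 0.03 (SE 0.12) and 0.09 (SE 0.09).

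Among ligands and co-receptors of the vascular growth factor pathways, 0 of 9 passed over all genes. Angpt1, the ligand that activates Tek, had 76, 85 and 79 in Jarid2WT and 91, 107 and 90 in Jarid2Δpanc (0.26, SE 0.09). Neuropilin 1 (Nrp1), a co-receptor of Kdr, had 1223, 1142 and 1286 in Jarid2WT and 1317, 1398 and 1477 in Jarid2Δpanc (0.20, SE 0.07). In both genes every knockout sample lay above every control, and neither passed over all genes (adjusted p = 0.516 and 0.499 from limma). Vegfa, the principal growth factor of the endothelium, had 0.15 (SE 0.06). Over the list of 9 ligands and co-receptors, 7 were positive, against 52.3% of all genes. Of the 9, 2 were higher at an unadjusted p under 0.05, against 4.37%. Above all controls lay 2, against 5.71%, and below them 0, against 5.64%.

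Notch and arteriovenous genes were split in direction. Dll4, the Notch ligand of arterial and tip cells, was the one gene of the 72 below all controls, with signals of 58, 52 and 47 in Jarid2WT and 43, 45 and 40 in Jarid2Δpanc (-0.29, SE 0.09, limma adjusted p = 0.495). It is dim, and with all of its probe sets averaged the value was 0.10. The same list of 14 genes held 2 above all controls, against 5.71% of all genes, and 1 below, against 5.64%. Jag1, another Notch ligand, had 930, 938 and 940 in Jarid2WT and 944, 1053 and 1018 in Jarid2Δpanc (0.10, SE 0.05). Acvrl1, a receptor for bone morphogenetic proteins named after its values were seen, was dim, with 50, 38 and 46 in Jarid2WT and 53, 52 and 54 in Jarid2Δpanc (0.26, SE 0.11). The margins were narrow in both. The receptor Notch1 had 0.02 (SE 0.06). Of these 14 genes, 8 were positive and 5 negative. In the list of tip cell and sprouting genes, 5 of 9 were positive, and Igfbp3, which binds insulin-like growth factors, had -0.02 (SE 0.12).

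In a longer list of 25 pan-endothelial genes, which includes Tie1, 15 were positive and 10 negative. Cd93, a C-type lectin of endothelial and myeloid cells, had 354, 384 and 405 in Jarid2WT and 483, 447 and 497 in Jarid2Δpanc (0.32, SE 0.07, limma adjusted p = 0.343). With all probe sets of Cd93 averaged the difference was 0.06. Ecscr, a regulator of endothelial migration, had 173, 192 and 173 in Jarid2WT and 200, 226 and 213 in Jarid2Δpanc (0.25, SE 0.07). Ushbp1 was dim, with 32, 32 and 28 in Jarid2WT and 45, 45 and 36 in Jarid2Δpanc (0.45, SE 0.12). In these genes the knockout samples lay above the controls, as they did for Icam1, a leukocyte adhesion molecule named after its values were seen, with 67, 74 and 94 in Jarid2WT and 96, 99 and 98 in Jarid2Δpanc (0.33, SE 0.14). Every knockout sample lay above every control in 4 of the 25 genes, against 5.71% of all genes, and below in 0, against 5.64%. Sparcl1, a relative of Sparc, had 0.12 (SE 0.10).

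Lists of neighbouring cell types were read on the same arrays. Pericyte and vascular smooth muscle genes had a median log2 fold change of 0.15, with 10 of 12 positive, and mesenchymal genes had 0.13, with 10 of 11 positive. The 6 measured genes of lymphatic endothelium, of which Flt4 is itself among the 42, were all positive, with a median of 0.23. Genes of the pancreatic epithelium had a median of -0.08, with 7 of 10 negative. At an unadjusted p under 0.05, 2 of the 12 pericyte, 1 of the 11 mesenchymal and 1 of the 6 lymphatic genes were higher and 0 lower. Of the 10 epithelial genes 1 was higher and 1 lower. Over all genes 4.37% were higher and 4.44% lower. The lymphatic gene, Prox1, is also expressed in the pancreatic epithelium. Of these 4 lists, 0 genes passed over all genes with limma.

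The levels of these lists by sample are given as sums of linear signals. Summed signals of the 12 pericyte and smooth muscle genes were 4018 to 5025 in Jarid2WT and 4613 to 5229 in Jarid2Δpanc, and those of the 11 mesenchymal genes were 27804 to 33467 and 30472 to 35062. The 42 genes summed to 11856 to 12885 in Jarid2WT and 12463 to 13798 in Jarid2Δpanc. The 10 epithelial genes summed to 19951 to 22158 in Jarid2WT and 18398 to 20287 in Jarid2Δpanc. In all 4 lists the groups overlapped, and the part of tissue composition in the values of the 42 genes was not tested.

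**Figure D4:**
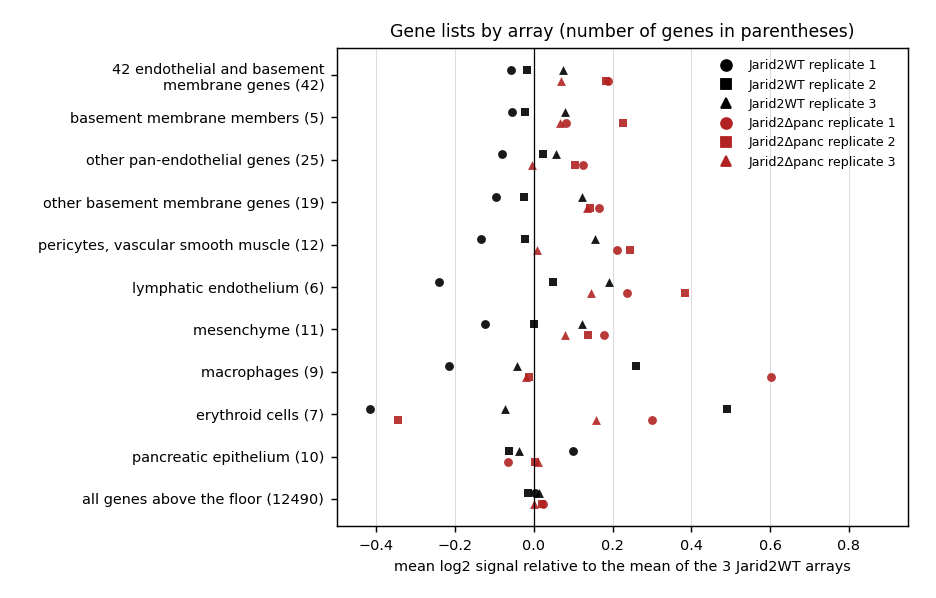
Mean log2 signal of gene lists on each array relative to the mean of the 3 Jarid2WT arrays (horizontal axis), for the 42 genes, related lists, neighbouring cell types and all genes above the floor (vertical axis, number of genes in parentheses). Black symbols are Jarid2WT and red symbols Jarid2Δpanc arrays. For the 42 genes Jarid2WT replicate 3 lies at 0.07, beside Jarid2Δpanc replicate 3, and macrophage and erythroid genes spread more widely within the groups.

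Lists of blood cells spread more widely within the groups. The mean log2 signal of 9 macrophage genes, relative to the controls, was 0.60 in Jarid2Δpanc replicate 1 and -0.02 to -0.01 in the other knockout samples. Erythroid genes ranged from -0.42 to 0.49 in Jarid2WT and from -0.34 to 0.30 in Jarid2Δpanc. Of 6 megakaryocyte and platelet genes 2 were positive and 4 negative, with a median of -0.19. Mesothelial genes, from the lining of the organ, had a median of 0.19 over 6 genes. The part of these cells in the differences of the 42 genes was not tested.

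Several genes of the 42 had more than 1 probe set, and these gave a check that the choice of the brightest did not use. Beside the 42 chosen probe sets there were 27 others of 19 genes, of which 2 were at the floor on all arrays. Of the remaining 25, 15 were positive, with a median of 0.12, against 52.3% of all genes with a difference other than 0. The sign was that of the chosen probe set in 13 of the 25. In 3 of the 25, 1 of Fli1 and 2 of Nid1, the knockout samples lay above all controls, and in 0 below. Over all genes, each by its brightest probe set, 5.71% lay above and 5.64% below. The signs of single genes thus depended on the probe set, also where the difference was not near 0. The chosen and the other probe set had 0.19 and -0.42 for Hspg2, 0.25 and -0.20 for Clec14a, and 0.28 and -0.07 for Sox17.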

How the data were processed

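RNA of 3 Jarid2WT and 3 Jarid2Δpanc pancreases at e15.5 was amplified from 50 ng and hybridized to Affymetrix mouse genome arrays. The deposited values are whole-number intensities of 45101 probe sets per array, made by the authors with MAS5 (per the labels, version not given in the sources used here) and scaled to a trimmed mean of 150 with 2% left out at each end. The paper names RMA for its own analysis, which needs scanner files that were not used here. A description label names islets, whereas all other labels name embryonic pancreas, which was followed. Values under 16 (26.5% to 29% of probe sets per array) were set to 16, and log2 was taken. A single symbol is carried by 34958 probe sets, several by 932 and none by 9211 in the annotation used, and each of 18194 genes was represented by its brightest such probe set (mean log2 value). The comparison used limma 3.58.1 (R 4.3.3) with Benjamini-Hochberg adjustment over all genes and a threshold of 0.05, without covariates, and the script was tested on simulated data. With 3 samples in each group and no labels that name litters or scan batches, p-values measure the spread between these samples, and the number of arrays limits precision. Correlations used scipy 1.17.1. Coordinates and start sites come from RefSeq, build GRCm38.p6. The 42 genes, the lists, and the rule for genes given with all readings (of the 42, the 2 brightest of each role group, those at an unadjusted p under 0.05 and those whose groups do not overlap) were chosen with earlier results of these data known. From the other lists, genes at an unadjusted p under 0.05 and the 2 brightest were named. Alternatives covered the floor, normalization between arrays, probe set choice, gene filters, variance models, the replicate number as a block, the control with Xist alone and each sample left out.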

Additional observations from a re-analysis of the deposited data

How the results depend on the processing

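In each of the 17 alternatives, 0 of the 42 genes fell and 0 rose past the adjusted threshold of limma. Over all genes the same fits called 208 lower and 13 higher against Jarid2WT replicate 3 alone, where the lone control is assumed to vary like the other samples, 54 and 10 without the dimmest 40%, and at most 8 and 4 in the others. The median log2 fold change stayed positive, from 0.09 to 0.19, apart from 0.030 against Jarid2WT replicate 3 alone. There 14 of the 42 genes lay above and 6 below that control, against 20.1% and 22.3% of all genes. Genes higher at an unadjusted p under 0.05 numbered 2 with all probe sets averaged, against 5.14% of all genes. Without the genes at the floor there was 1, against 3.92%. The fit with trended and robust variances without the dimmest 40% of genes, which leaves 41 of the 42, had 3, against 4.83%. After quantile normalization 1 gene was lower at an unadjusted p under 0.05, against 4.27% of all genes, and 1 lay below all controls, against 5.69%. With arrays centred on the median 1 lay below all controls, against 8.78%. With single samples left out, 0 to 3 genes were higher at an unadjusted p under 0.05, 3 to 11 lay above all controls and 0 to 2 below, which fewer samples make easier. With single samples left out, 9.56% to 10.8% of all genes lay above all controls. With probe sets without a name suffix preferred, Calcrl was at the floor (0).

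Same-numbered samples did not deviate together (r = -0.024, -0.022 and -0.018 for the 3 pairs over 12490 genes). The labels do not name litters, so whether the numbers pair the samples is not known. With the replicate block, 1 gene was higher at an unadjusted p under 0.05 and none passed at an adjusted p.

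Several named genes changed sign, none of them past the adjusted threshold. Apln had -0.0028 after quantile normalization. Centring on the median gave -0.0098 for Kdr, -0.0017 for Col4a1, -0.0088 for Col4a2 and -0.0074 for Notch1. Averaged probe sets gave -0.052 for Eng, -0.0097 for Col4a1, 0.10 for Dll4, 0.018 for Igfbp3 and -0.037 for Vegfa. Against Jarid2WT replicate 3 alone, Cd34 had -0.21, Kdr -0.042, Apln -0.23, Col4a1 -0.15, Col4a2 -0.18, Nid1 -0.094, Sparc -0.12 and Sparcl1 -0.0038. With single samples left out the ranges were -0.086 to 0.15 for Apln, -0.084 to 0.11 for Col4a1, -0.077 to 0.11 for Col4a2, -0.071 to 0.25 for Eng, -0.10 to 0.20 for Ets1, -0.15 to 0.052 for Igfbp3, -0.10 to 0.17 for Kdr, -0.021 to 0.081 for Notch1, -0.095 to 0.069 for Plvap, -0.042 to 0.12 for Ramp2 and -0.069 to 0.11 for Sparc. The cause was not tested.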
